A study of Mus musculus with 6 samples.

Results

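The genes described here encode the classical guidance ligands and their receptors: the semaphorins with the neuropilins and plexins, the ephrins with the Eph receptors, the netrins with the Unc5 receptors, and the Slit ligands with the Robo receptors. They were chosen by symbol alone, with no measured value in the rule, and 68 such genes stand among the 55401 genes listed. After a filter on low counts 57 of the 68 were tested, in a fit over 18539 genes.

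All cells were NIH3T3, fibroblasts from mouse embryos that were immortalized in culture. The libraries were 2 of empty vector cells given the DMSO vehicle (EV), 1 of cells expressing the TAZ-CAMTA1 fusion protein TC and given DMSO (TC), and 3 of TC-expressing cells given 10 μM aurintricarboxylic acid (TC + ATA), all for 48 h. TC joins parts of TAZ, a co-activator that works through TEAD transcription factors, to parts of CAMTA1, and the study asked whether ATA, a disruptor of TAZ-TEAD binding, turns back what TC does to transcription. The promoter of the transgene, the number of clones and whether replicates were separate cultures are not given in the sources used here, so p-values measure the spread between these libraries, which may be technical.

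Guidance proteins steer growing axons and migrating cells by attraction or repulsion. Secreted semaphorins bind neuropilin and plexin pairs, most membrane semaphorins bind plexins directly, ephrins and Eph receptors signal in both directions between touching cells, Slits act through Robo receptors and netrins through Dcc, neogenin and the Unc5 receptors. Outside the nervous system the same proteins act in vessel growth, epithelial sorting, fibroblast adhesion and cell migration.

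Library totals ran from 58471484 to 74413193 counts. All 9 fibroblast markers reached 1 CPM (counts relative to the TMM-adjusted library size) in at least 1 library, with a summed level of 14700 to 16850 CPM in EV, 18590 in TC and 18210 to 19390 in TC + ATA, and 0 of 6 epithelial markers did. Not all of them went with the sum: Pdgfra read 404.1 and 421.9 CPM in EV and 174.7 to 180.1 in the TC-expressing libraries, and Thy1 203.6 and 183.3 in EV and 69.6 to 86.0. The 2 EV libraries stood further apart (chi-square per degree of freedom over genes 61.3) than TC and the TC + ATA libraries (22.8 to 24.7) or the TC + ATA libraries among themselves (5.86 to 6.61). Among markers of other cells, 3 of 6 neuronal markers reached 1 CPM, with a summed level of 18.3 to 20.2 CPM in EV, 9.64 in TC and 7.41 to 8.18 in TC + ATA. Those 3 were Tubb3, Map2 and Snap25. Tubb3 read 7.31 and 7.04 CPM in EV and 3.90 to 6.74 in the TC-expressing libraries. Map2 read 8.82 and 10.1 CPM in EV and 2.39 to 2.99 in the latter, and Snap25 2.09 and 2.94 in EV and 0.226 to 0.458. Of the other neuronal markers, Syp did not exceed 0.440 CPM in any library, and Rbfox3 and Elavl4 did not exceed 0.0575. The 5 immune markers, 3 of which reached 1 CPM, summed to 6.90 and 6.96 CPM in EV, 10.98 in TC and 11.7 to 17.4 in TC + ATA. Lyz2 read 0.495 and 0.249 CPM in EV, 5.66 in TC and 8.40 to 9.59 in TC + ATA. The others did not go with the sum: Ptprc read 3.17 and 2.87 in EV, 2.23 in TC and 0.282 to 5.33 in TC + ATA. Cd68 read 2.57 and 3.45 in EV, 2.58 in TC and 1.81 to 3.68 in TC + ATA, and Cd3e and Cd79a did not exceed 0.649. Of the 6 endothelial markers 2 reached 1 CPM, and the list summed to 1.82 to 2.58 CPM in EV, 3.82 in TC and 3.15 to 3.89 in TC + ATA. Of the 5 markers of glia and Schwann cells 2 did, with sums of 1.31 to 2.25, 1.2 and 1.75 to 2.75 CPM. The part of these marker levels in the results was not tested. Mouse Wwtr1, the TAZ gene, read 110.3 and 103.7 CPM in EV, 138.6 in TC and 129 to 131.4 in TC + ATA, and Camta1 15.5 to 19.2 CPM in all 6 libraries. These counts check the labels only in part, since the sources used here do not say how much of the construct would be counted in the mouse genes. The TEAD target Ccn1 rose from 275.3 and 332.1 CPM in EV to 779.9 in TC, and stood at 735.5 to 772.1 in TC + ATA. By qPCR the paper reports lower Ccn1 (there CYR61) and other TAZ targets with ATA. From its RNA-Seq it reports a negative enrichment score with ATA for the genes that TC raised.

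Guidance genes were widely present in these fibroblasts. On average over the libraries 40 of the 68 stood at 1 CPM or more, 24 at 10 or more and 7 at 100 or more, and those 7 were Plxnb2, Epha2, Nrp2, Plxna1, Nrp1, Sema3f and Ephb3. The 11 genes that did not pass the filter, Epha3, Epha6, Epha8, Epha10, Ephb1, Ntn5, Plxnb3, Robo2, Sema5b, Unc5c and Unc5d, never exceeded 10 counts. Epha3 and Unc5d had 0 counts in every library, which allows up to 3 counts, or 0.0393 to 0.0528 CPM.

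Levels of different genes were compared per length, as CPM per kb of exon. The gene with the highest level per length in its family was Plxnb2 among the plexins (58.9 CPM per kb over the 6 libraries), Epha2 among the EphA receptors (53.7), Sema3f among the class 3 semaphorins (25.8), Ephb3 among the EphB receptors (17.9), Nrp2 of the neuropilins (17.6), Slit3 of the Slits (12.5), Efna1 of the ephrin-A ligands (11.3), Efnb1 of the ephrin-B ligands (9.13) and Unc5b of the Unc5 receptors (7.73). Lower leaders were Sema4b (5.29), Sema5a (2.6), Ntn4 (2.2), Sema7a (1.46) and Sema6c (1.18). These ranks hold for the mean over the 6 libraries: in EV alone the highest were Efnb2 (11.99 CPM per kb) among the ephrin-B ligands, Nrp1 (14.5) of the neuropilins, Ephb4 (17.6) among the EphB receptors, Sema4c (6.53) in class 4 and Ntn3 (1.34) of the netrins. In EV, Plxnb2 led with 40.5 CPM per kb and Slit3 (20.6), Plxna1 (19.8) and Epha2 (19.7) followed close together, whereas in TC Epha2 stood at 80.2, above Plxnb2 at 64.8.

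**Figure D1:**
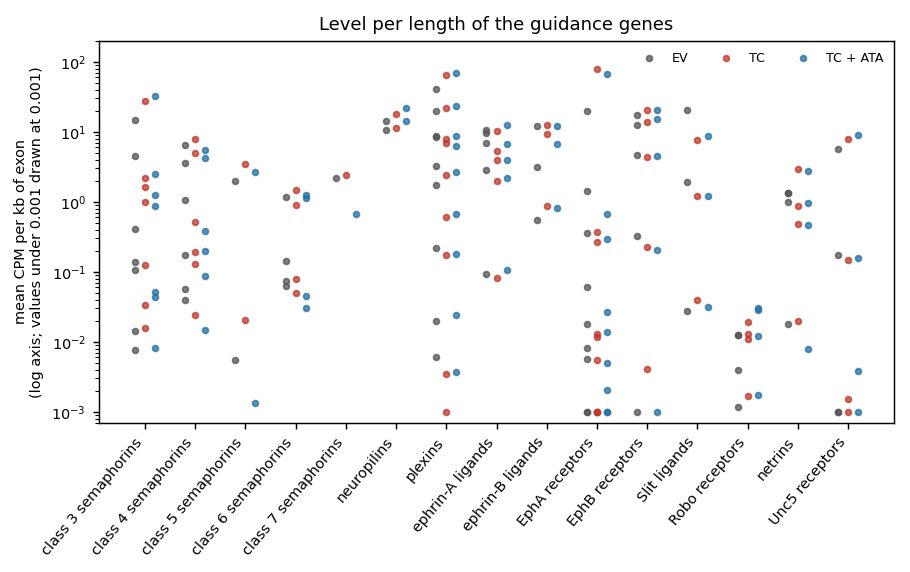
Mean level of each of the 68 guidance genes in CPM per kb of exon (log axis, values under 0.001 drawn at 0.001) by family, with EV in grey, TC in red and TC + ATA in blue. The highest points are Plxnb2 among the plexins and Epha2 among the EphA receptors, and no Robo receptor exceeds 0.0307 CPM per kb.

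In TC versus EV 13 of the 57 tested guidance genes passed as higher and 17 as lower, with the adjusted p-value limited to 0.05 (edgeR quasi-likelihood test, Benjamini-Hochberg over all genes tested), and 27 passed in neither direction. These are 22.8% and 29.8% of the guidance genes tested, beside 14.8% and 13.2% of all genes. The median log2 fold change of the guidance genes was −0.20 against −0.03 for all genes, and the median size of the log2 fold change, whatever its sign, was 0.64 against 0.39. With the study's further limit of an absolute log2 fold change of 2, 5 were higher (Sema6b, Sema3c, Sema3b, Efnb1 and Epha2) and 1 lower (Epha7), where 2.36% and 1.27% of all genes passed. Ligands and receptors both moved in both directions: 8 of 33 tested ligands were higher and 11 lower, and 5 of 24 tested receptors were higher and 6 lower. TC has 1 library, so the spread was estimated from the other 5 libraries and nothing checks the TC value by replication. Fitted with the EV and TC libraries alone, 10 genes were lower, and by log2 2 or more there were 3 higher without EV replicate 2 and 2 lower without EV replicate 1. Bulk RNA cannot tell apart fewer cells that make a transcript and less of it per cell.

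**Figure D2:**
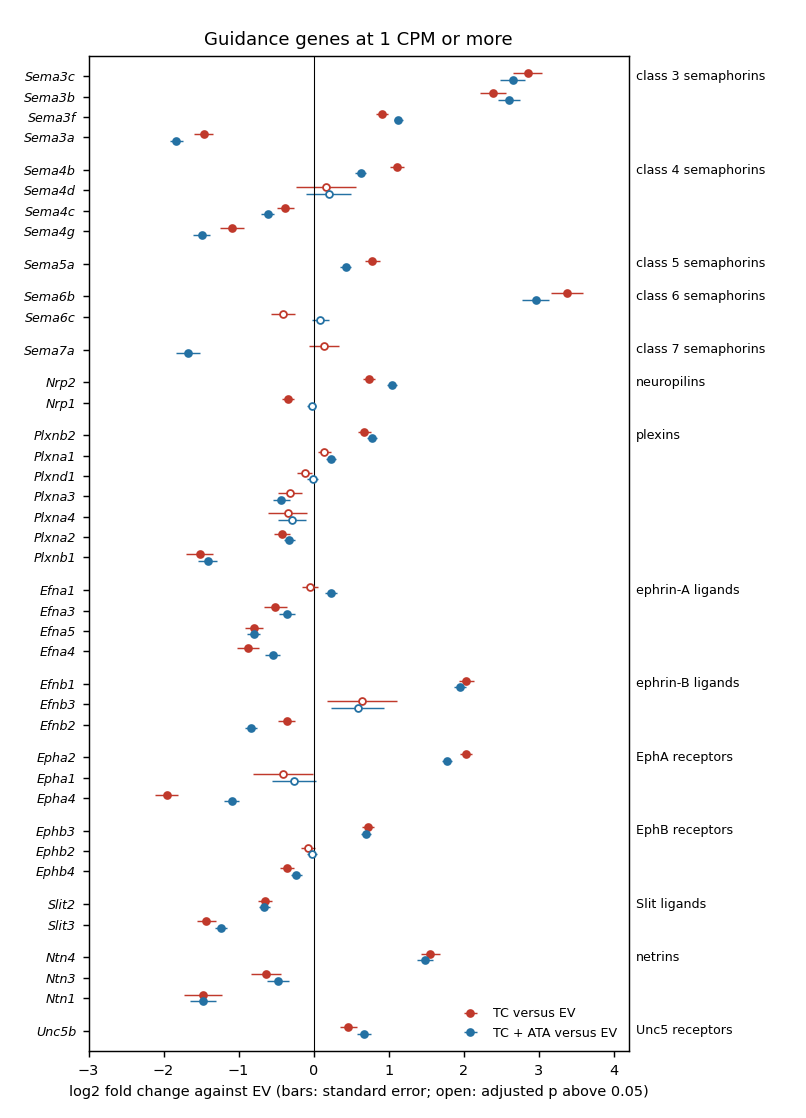
Log2 fold changes against EV (points, with the standard error as bars) of the 40 guidance genes with a mean of 1 CPM or more, grouped by family, for TC in red and TC + ATA in blue, with open points where the adjusted p-value was above 0.05. Sema6b has the highest TC value (3.38) and Epha4 the lowest (−1.96), and red and blue points of a gene mostly lie near each other while those of Sema7a stand apart.

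Secreted class 3 semaphorins divided by gene. Sema3c, a ligand of neuropilins, read 0.896 and 1.09 CPM in EV, 7.19 in TC and 6.67, 6.52 and 5.62 in TC + ATA. Sema3b read 2.14 and 1.78 CPM in EV, 10.3 in TC and 13.1, 12.3 and 10.5 in TC + ATA. All 4 TC-expressing libraries lay above both EV libraries for either gene, and the log2 fold changes in TC versus EV were 2.85 ± 0.20 for Sema3c (SE, adjusted p = 1.07e-05, edgeR) and 2.40 ± 0.17 for Sema3b (adjusted p = 1.46e-05, edgeR). Sema3f, the most abundant of the class and a ligand of neuropilin 2, rose from 77.5 and 76.5 CPM in EV to 144.6 in TC, a log2 fold change of 0.91 ± 0.08 (adjusted p = 3.31e-05, edgeR), and stood at 165.9 to 173.1 CPM in TC + ATA.

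Sema3a, a repellent of neurites and endothelial cells that acts through neuropilin 1, went the other way. It read 58.8 and 65.1 CPM in EV, 22.4 in TC and 16.0, 18.9 and 17.2 in TC + ATA. Its log2 fold changes were −1.47 ± 0.12 in TC versus EV (adjusted p = 3.58e-05, edgeR) and −1.83 ± 0.09 in TC + ATA versus EV (adjusted p = 6.96e-07, edgeR). The groups did not overlap. Of the others in the class, Sema3d and Sema3g did not exceed 0.288 CPM in any library. Sema3e read 1.03 and 0.918 CPM in EV, 1.17 in TC and 0.352 to 0.550 in TC + ATA. It was lower in TC + ATA than in EV (log2 fold change −1.0 ± 0.31, adjusted p = 0.0339, edgeR), a call lost without EV replicate 1 or any TC + ATA replicate (adjusted p = 0.0659 to 0.0828, edgeR). Sema3a and Sema3c, which went in opposite directions, lie on the same chromosome 5, at 13125414 to 13602565 and 17574281 to 17730268, with Sema3e between them. Sema3b and Sema3f, both higher, lie 72.3 kb apart on chromosome 9. Whether direction goes with position was not tested.

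Of the membrane semaphorins, Sema6b showed the highest ratio of TC to EV among the guidance genes called. This transmembrane ligand of A-type plexins read 0.615 and 0.525 CPM in EV, 5.94 in TC and 4.38, 4.71 and 4.27 in TC + ATA. It was thus close to absent in EV and 10.4-fold higher in TC (log2 fold change 3.38 ± 0.21, adjusted p = 5.84e-06, edgeR). Sema6c read 7.59 and 6.49 CPM in EV, 5.30 in TC and 7.31 to 7.73 in TC + ATA, and passed in none of the comparisons. Sema6a and Sema6d did not exceed 0.821 CPM.

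Class 4 semaphorins, which signal chiefly through B-type plexins, held 1 gene that rose and 2 that fell of 6 tested in TC versus EV. Of all genes 14.8% were higher and 13.2% lower. Sema4b read 19.2 and 21.5 CPM in EV, 44.0 in TC and 31.6, 31.1 and 31.6 in TC + ATA, and was 2.16-fold higher in TC (log2 fold change 1.11 ± 0.09, adjusted p = 3.76e-05, edgeR). Its TC + ATA libraries lay between the other groups. Sema4d (1.00 to 1.81 CPM), Sema4a (0.187 to 0.706) and Sema4f (0.0564 to 0.262) passed in none of the comparisons. Sema4g read 9.0 and 9.67 CPM in EV, 4.39 in TC and 3.40, 3.23 and 3.34 in TC + ATA, and had in TC a log2 fold change of −1.09 ± 0.16 (adjusted p = 0.000976, edgeR). Sema4c fell less, from 27.9 and 32.1 CPM to 23.0 in TC (log2 fold change −0.38 ± 0.11, adjusted p = 0.0355, edgeR), and without any one of the TC + ATA replicates this did not pass (adjusted p = 0.0675 to 0.0765, edgeR). In the counts of Sema4c, reads from the antisense gene D430040D24Rik, which overlaps 334 exon bases, cannot be told apart if strand was not used.

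Sema5a, a transmembrane semaphorin with thrombospondin repeats, rose from 40.2 and 35.0 CPM in EV to 64.7 in TC (log2 fold change 0.78 ± 0.10, adjusted p = 0.00036, edgeR) and stood at 49.2 to 51.4 in TC + ATA. Sema7a, the membrane-anchored semaphorin that binds plexin C1 and integrins, did not differ detectably between TC and EV and is taken up with ATA. Plxnc1, its plexin, did not exceed 0.317 CPM in any library.

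Semaphorin receptors were abundant. Plxnb2, a receptor for class 4 semaphorins, read 321.6 and 303.5 CPM in EV, 500.0 in TC and 537.2, 544.8 and 521.7 in TC + ATA, with a log2 fold change of 0.68 ± 0.09 in TC versus EV (adjusted p = 0.00043, edgeR). Its relative Plxnb1, the Sema4d receptor, read 14.8 and 19.0 CPM in EV, 5.89 in TC and 6.48, 6.70 and 5.88 in TC + ATA, with a log2 fold change of −1.52 ± 0.18 (adjusted p = 0.00029, edgeR). The pair of B-type plexins thus moved in opposite directions, with no overlap of EV and the TC-expressing libraries for either gene. Of the 9592 exon bases of Plxnb1, 257 overlap the antisense gene Gm7628.

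Neuropilins, the co-receptors of class 3 semaphorins, were split too. Nrp2 rose from 128.7 and 124.6 CPM in EV to 211.9 in TC (log2 fold change 0.74 ± 0.08, adjusted p = 0.000152, edgeR) and read 267.5, 262.4 and 252.5 in TC + ATA. Nrp1 fell from 145.7 and 137.1 CPM to 111.6 in TC (log2 fold change −0.34 ± 0.08, adjusted p = 0.014, edgeR), a call lost when only EV and TC entered the fit (adjusted p = 0.208, edgeR), and its TC + ATA libraries at 136.6, 142.3 and 137.2 CPM overlapped with EV. So the Nrp2 ligand Sema3f and Nrp2 were both higher in TC, and the Nrp1 ligand Sema3a and Nrp1 both lower. Not every pair went this way: Sema3c, also a ligand of neuropilins, rose in TC while Nrp1 fell. In TC + ATA Sema3a stayed low (mean 17.4 CPM against 61.9 in EV), whereas Nrp1 was at the EV level (138.7 against 141.4). Among A-type plexins Plxna2 fell from 52.7 and 60.3 CPM to 42.1 in TC (log2 fold change −0.42 ± 0.10, adjusted p = 0.0135, edgeR; adjusted p = 0.0728 when fitted with EV and TC alone). Plxna1 (174.1 to 215.9 CPM over the 6 libraries), Plxna3 (47.2 to 76.6), Plxna4 (2.2 to 3.44), Plxnd1 (58.1 to 65.7) and Plxnc1 did not pass in TC versus EV.

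Epha2, a receptor tyrosine kinase for ephrin-A ligands that is abundant in many carcinomas, had the highest mean CPM over the 6 libraries of the guidance genes after Plxnb2. It lies on chromosome 4 from 141301240 to 141329384 (GRCm38). It read 95.1 and 88.9 CPM in EV, 374.9 in TC and 325.0, 308.5 and 312.8 in TC + ATA. All 4 TC-expressing libraries lay far above both EV libraries, and the gene was 4.08-fold higher in TC than in EV (log2 fold change 2.03 ± 0.08, adjusted p = 7.76e-07, edgeR) and 3.43-fold higher in TC + ATA than in EV (log2 fold change 1.78 ± 0.07, adjusted p = 2.29e-07, edgeR).

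Since TC acts with TEAD factors, the windows around RefSeq gene starts (250 bases before to 50 after, GRCm38.p6) were searched on both strands for the TEAD core GGAATG, which reads CATTCC on the other strand, and for the AP-1 site TGANTCA. A window was found for 59 of the 68 guidance genes. The TEAD core stood in 9 of them (15.3%), against 16.6% of 27025 genes, and the AP-1 site in 3 (5.08%), against 8.97%. Of the genes changed at least 2-fold in TC versus EV, 6 that rose and 6 that fell had a window, and the core stood in 1 of each, Epha2 and Plxnb1. The AP-1 site stood in 1 of the 6 that rose, Sema6b (TGAGTCA, beginning 48 bases before the start), and in 0 of the 6 that fell. Their sequences are shown because they are the genes with a TEAD core match among those with large changes, with the core in capitals. For Epha2 it is the 250 bases up to the RefSeq start, with cores that begin 243 and 56 bases before it (chr4:141300971-141301220, plus strand). For Plxnb1 it is the 30 bases around a core 148 bases before the start (chr9:109095276-109095305, plus strand). The 66 bases around the Plxnb1 core overlap an annotated exon. A match describes these letters only.
Epha2: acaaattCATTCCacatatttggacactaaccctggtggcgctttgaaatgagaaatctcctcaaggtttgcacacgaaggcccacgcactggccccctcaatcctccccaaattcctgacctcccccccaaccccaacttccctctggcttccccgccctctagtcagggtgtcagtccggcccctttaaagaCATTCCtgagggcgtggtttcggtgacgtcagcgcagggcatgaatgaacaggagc
Plxnb1: tcccgcgggaccGGAATGcggggtcccgga

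Epha4, a receptor for both ephrin classes, was the opposite of Epha2. It read 11.2 and 11.8 CPM in EV, 2.95 in TC and 5.23, 5.39 and 5.54 in TC + ATA, so the groups were ordered EV, TC + ATA, TC with no overlap. It had log2 fold changes of −1.96 ± 0.15 in TC versus EV (adjusted p = 2.35e-05, edgeR) and −1.09 ± 0.10 in TC + ATA versus EV (adjusted p = 4.09e-05, edgeR). Epha7 was a low gene, at 0.548 and 0.656 CPM in EV, 0.115 in TC and 0.198 to 0.302 in TC + ATA, and was lower in TC (log2 fold change −2.37 ± 0.65, adjusted p = 0.0251, edgeR). Among EphB receptors Ephb3 rose from 82.3 and 85.4 CPM in EV to 138.2 in TC (log2 fold change 0.72 ± 0.08, adjusted p = 0.000205, edgeR). Ephb4, a receptor of ephrin-B2, read 83.7 and 79.9 CPM in EV and 63.9 in TC (log2 fold change −0.36 ± 0.09, adjusted p = 0.0207, edgeR). This call was lost without TC + ATA replicate 1 (adjusted p = 0.0515, edgeR) and also when only EV and TC entered the fit. Ephb2 read 54.8 to 60.2 CPM across all 6 libraries and passed in none of the comparisons, nor did the low genes Epha1 (0.917 to 1.61 CPM), Epha5 (0.173 to 0.407) and Ephb6 (0.466 to 1.39).

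Efnb1, a transmembrane ligand of EphB receptors encoded on chromosome X from 99136130 to 99148991, read 11.3 and 10.1 CPM in EV, 43.7 in TC and 42.7, 41.5 and 39.9 in TC + ATA. TC and TC + ATA lay close together and well above EV, and the gene was 4.10-fold higher in TC (log2 fold change 2.03 ± 0.10, adjusted p = 1.62e-06, edgeR). Efnb2 read 76.6 and 87.9 CPM in EV, 64.0 in TC and 42.9, 48.3 and 46.7 in TC + ATA. Its fall in TC versus EV (log2 fold change −0.36 ± 0.11, adjusted p = 0.0368, edgeR) did not pass without any one of the TC + ATA replicates (adjusted p = 0.0553 to 0.0858, edgeR), and in TC + ATA versus EV it was also lower (log2 fold change −0.84 ± 0.08, adjusted p = 4.95e-05, edgeR). Efnb3 read 1.03 to 3.18 CPM over the 6 libraries and passed in none of the comparisons.

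The ephrin-A ligands are tethered to the membrane by a lipid anchor and bind EphA receptors. In TC versus EV 0 of 5 passed as higher, 3 fell and 2 did not pass, beside 14.8% higher and 13.2% lower of all genes. With 5 genes these counts describe single genes rather than the family. Efna5 read 25.8 and 29.3 CPM in EV and 15.9 in TC (log2 fold change −0.80 ± 0.12, adjusted p = 0.00146, edgeR), and Efna4 16.5 and 14.2 in EV and 8.39 in TC (log2 fold change −0.88 ± 0.14, adjusted p = 0.00178, edgeR). Efna3 fell from 7.02 and 6.66 CPM to 4.80 (log2 fold change −0.51 ± 0.15, adjusted p = 0.0329, edgeR), a call lost without any one of the TC + ATA replicates (adjusted p = 0.066 to 0.068, edgeR). Efna1, 32.8 kb from Efna3 on chromosome 3, read 18.2 and 20.1 CPM in EV, 18.5 in TC and 22.2, 23.3 and 22.2 in TC + ATA. Efna1 was called higher in TC + ATA versus EV (log2 fold change 0.24 ± 0.08, adjusted p = 0.0436, edgeR), and not without EV replicate 1 or any TC + ATA replicate (adjusted p = 0.101 to 0.157, edgeR). Efna2 did not exceed 0.282 CPM. Antisense genes overlap 344 exon bases of Efna3 and 168 of Efna4.

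**Figure D3:**
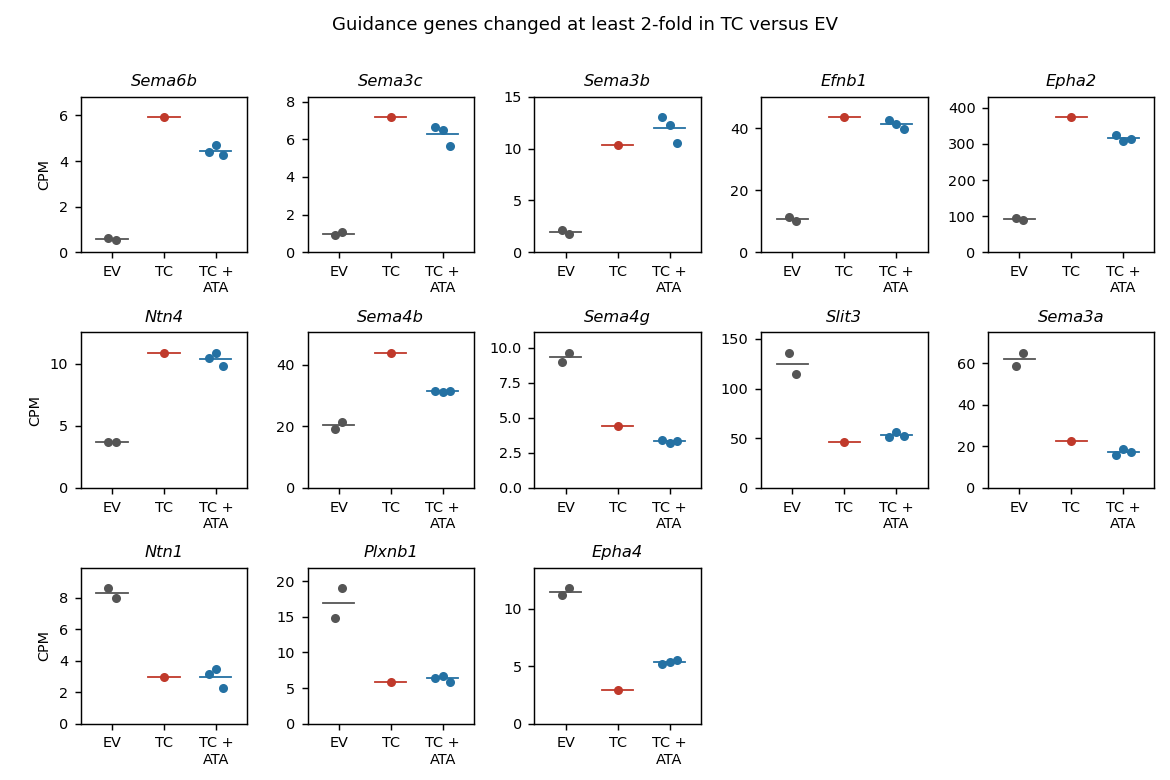
CPM in each library (points, with the group mean as a line) of the 13 guidance genes called in TC versus EV with at least a 2-fold change and a mean of 1 CPM or more, with 2 EV, 1 TC and 3 TC + ATA libraries and a separate linear axis from 0 for each gene. In all 13 panels both EV points lie on one side of the TC point and of the 3 TC + ATA points. The genes were picked for their difference between TC and EV, so the separation from TC follows largely from that choice.

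The abundant Slit ligands fell in TC versus EV, 2 of 3 tested, where 13.2% of all genes were lower. Slit3, on chromosome 11 from 35121224 to 35708507, read 136.1 and 114.2 CPM in EV, 46.5 in TC and 50.9, 56.3 and 52.1 in TC + ATA (log2 fold change −1.43 ± 0.12 in TC versus EV, adjusted p = 3.93e-05, edgeR). Slit2 read 49.4 and 47.4 CPM in EV, 30.8 in TC and 29.2 to 32.0 in TC + ATA (log2 fold change −0.65 ± 0.09, adjusted p = 0.000935, edgeR). Slit1 did not exceed 0.231 CPM. Slit2 and Slit3 were lower in all 4 TC-expressing libraries than in both EV libraries. Their Robo receptors were near the detection limit: Robo1, Robo3 and Robo4 did not exceed 0.310 CPM in any library and none of them passed in any comparison (edgeR). Robo3 came closest, at 0.0535 and 0 CPM in EV, 0.130 in TC and 0.176, 0.310 and 0.144 in TC + ATA (adjusted p = 0.0533 in TC + ATA versus EV, edgeR), and there it passed with DESeq2, without a filter on low counts, with EV and TC + ATA alone and without EV replicate 1. Robo4 had the highest mean of the family per length over the 6 libraries, but not in TC or TC + ATA, where Robo3 stood above it, and read 0.0802 and 0.0525 CPM in EV, 0.0576 in TC and 0.246, 0.127 and 0.0863 in TC + ATA.

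Netrins, laminin-related secreted proteins, differed in direction. Ntn1, on chromosome 11 from 68209364 to 68400823, read 8.58 and 7.96 CPM in EV, 2.98 in TC and 3.13, 3.50 and 2.27 in TC + ATA (log2 fold change −1.47 ± 0.25 in TC versus EV, adjusted p = 0.00256, edgeR). Ntn4, a basement membrane netrin, read 3.72 and 3.69 CPM in EV, 10.9 in TC and 10.4, 10.9 and 9.81 in TC + ATA (log2 fold change 1.56 ± 0.13, adjusted p = 3.59e-05, edgeR). Ntn1 stood above Ntn4 per length in EV (1.32 against 0.989 CPM per kb) and below it in TC (0.475 against 2.91). Ntn3 fell from 6.99 and 6.68 CPM to 4.39 in TC (log2 fold change −0.64 ± 0.20, adjusted p = 0.0468, edgeR), a call lost without TC + ATA replicate 1 or 2 (adjusted p = 0.0509 to 0.0812, edgeR). Unc5b, a netrin receptor of the repulsive type, rose from 39.1 and 32.0 CPM in EV to 49.1 in TC (log2 fold change 0.46 ± 0.11, adjusted p = 0.0154, edgeR) and read 57.9, 55.1 and 56.9 in TC + ATA. Unc5a (0.374 to 0.832 CPM) passed in none of the comparisons.

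Dcc, the best known netrin receptor, had 0 counts in every library. Neo1, which encodes neogenin, a receptor for netrins and repulsive guidance molecules, read 68.8 and 62.4 CPM in EV, 257.5 in TC and 294.3, 281.1 and 271.7 in TC + ATA (log2 fold change 1.97 ± 0.09 in TC versus EV, adjusted p = 1.16e-06, edgeR). Its other ligands Rgma and Rgmb, picked after their values were seen, were both lower in TC: Rgma read 66.9 and 58.2 CPM in EV and 45.7 in TC (log2 fold change −0.45 ± 0.10, adjusted p = 0.0113, edgeR), and Rgmb 127.0 and 119.4 in EV and 63.6 in TC (log2 fold change −0.95 ± 0.11, adjusted p = 0.000245, edgeR). For Rgma the call was lost when EV and TC were fitted alone (adjusted p = 0.0522, edgeR).

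**Figure D4:**
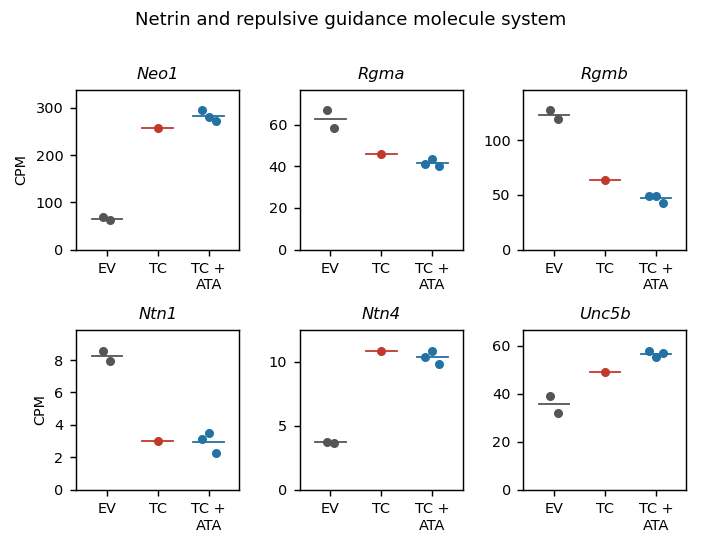
CPM in each library (points, with the group mean as a line) of neogenin, its ligands Rgma and Rgmb, Ntn1, Ntn4 and Unc5b, each on its own linear axis from 0, in 2 EV, 1 TC and 3 TC + ATA libraries. Neo1, Ntn4 and Unc5b are higher, and Rgma, Rgmb and Ntn1 lower, in every TC-expressing library than in both EV libraries.

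Beyond ligands and receptors, 57 co-receptors, other ligands and intracellular effectors of these pathways were listed by role, and 51 were tested. The list was made with earlier results of these data known, so its shares only describe it. In TC versus EV 13 were higher and 13 lower, 25.5% in either direction, beside the 14.8% and 13.2% of all genes above, and without any one of the TC + ATA replicates 8 were higher. Of the 12 Slit-Robo and netrin effectors 7 were higher and 0 lower (7 higher and 1 lower at an unadjusted p under 0.05 by edgeR, and 7 and 0 by DESeq2), and without any one of the TC + ATA replicates 4 were higher. Among these, Srgap3, which encodes a protein that binds Robo, read 37.9 and 38.2 CPM in EV and 79.0 in TC (log2 fold change 1.05 ± 0.08, adjusted p = 1.59e-05, edgeR), and the tyrosine kinase gene Abl2 89.9 and 90.7 in EV and 186.7 in TC (log2 fold change 1.05 ± 0.07, adjusted p = 1.21e-05, edgeR). In the semaphorin and plexin effectors, 2 of 15 were higher and 4 lower (1 and 2 without any one of the TC + ATA replicates, and 3 and 7 without EV replicate 1). Rnd1, a small GTPase that binds plexins, rose from 9.40 and 7.80 CPM to 57.3 in TC (log2 fold change 2.74 ± 0.11), and Mical1, an actin-oxidizing enzyme, fell from 5.11 and 6.89 to 2.39 (log2 fold change −1.33 ± 0.24).

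Eph effectors had 2 of 13 higher and 4 lower in TC versus EV, 15.4% and 30.8% beside 14.8% and 13.2% of all genes (1 and 3 without any one of the TC + ATA replicates). The large changes were all falls: Sh2d3c, an adaptor that binds Eph receptors, read 5.78 and 5.08 CPM in EV, 0.634 in TC and 0.920 to 0.988 in TC + ATA (log2 fold change −3.09 ± 0.27 in TC), Vav3, an exchange factor, 5.47 and 5.61 in EV and 2.10 in TC (−1.40 ± 0.22), and Arhgef15, the exchange factor ephexin 5, 1.5 and 1.18 in EV and 0.346 in TC (−1.95 ± 0.48). Of the co-receptors and other ligands 2 of 11 were higher and 5 lower. Flrt1, a membrane protein whose family binds Unc5 receptors, was higher in TC (2.12 CPM against 0.989 and 0.971 in EV, log2 fold change 1.11 ± 0.26), as was Neo1.

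In TC + ATA versus EV, the comparison with replicates on both sides, 15 of the 57 guidance genes were higher and 19 lower, 26.3% and 33.3% beside 18% and 18.6% of all genes. The median size of the log2 fold change was 0.66 against 0.35 for all genes. Higher were Sema3b, Sema3c, Sema3f, Sema4b, Sema5a, Sema6b, Nrp2, Plxna1, Plxnb2, Efna1, Efnb1, Epha2, Ephb3, Ntn4 and Unc5b. Lower were Sema3a, Sema3e, Sema4c, Sema4g, Sema7a, Plxna2, Plxna3, Plxnb1, Efna3, Efna4, Efna5, Efnb2, Epha4, Epha7, Ephb4, Slit2, Slit3, Ntn1 and Ntn3. The EV libraries serve in this comparison and in TC versus EV, so the lists are not independent. The log2 fold changes against EV, for TC and TC + ATA in turn, were 3.38 and 2.96 for Sema6b, 2.85 and 2.66 for Sema3c, 2.40 and 2.61 for Sema3b, 2.03 and 1.95 for Efnb1, 1.56 and 1.48 for Ntn4, and 1.11 and 0.63 for Sema4b. For the lower genes they were −1.52 and −1.41 for Plxnb1, −1.47 and −1.48 for Ntn1, −1.43 and −1.24 for Slit3, and −1.09 and −1.49 for Sema4g.

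Without any one of the TC + ATA replicates the call of Plxna1 was lost (log2 fold change 0.23 ± 0.06, adjusted p = 0.0191 with all libraries and 0.0518 to 0.112 without one, edgeR), and that of Plxna3 without EV replicate 2 or TC + ATA replicate 1 or 2 (log2 fold change −0.43 ± 0.11, adjusted p = 0.0171 with all libraries and 0.0511 to 0.0673 without one, edgeR). Calls of 3 further genes depended on single libraries here: Efna3 (EV replicate 1 or any TC + ATA replicate, adjusted p = 0.0574 to 0.0922, edgeR), Ephb4 (any TC + ATA replicate, 0.0501 to 0.123) and Ntn3 (TC + ATA replicate 1 or 3, 0.0818 to 0.102). Epha7 lost its call without any one of the 5 EV and TC + ATA libraries (0.0654 to 0.162). Of the listed pathway genes 11 were higher and 16 lower in TC + ATA versus EV, 21.6% and 31.4% beside 18% and 18.6% of all genes.

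ATA added to TC cells changed few guidance genes at this number of libraries. In TC + ATA versus TC 1 of 57 was higher, Epha4, and 1 lower, Sema7a, which is 1.75% in each direction beside 0.426% and 0.156% of all genes. At an unadjusted p under 0.05 there were 8 higher and 10 lower by edgeR, and DESeq2 called 3 higher (Epha4, Nrp1 and Nrp2) and 3 lower (Efnb2, Sema4b and Sema7a). The share of all genes was not computed for these counts or for those of the next sentence. They therefore cannot tell whether guidance genes differ from other genes. Without EV replicate 1 or 2 there were 6 and 7 higher and 6 and 6 lower by edgeR, and without any one of the TC + ATA replicates 0 were higher. The median log2 fold change of the 57 was 0.05, with 0.00 for all genes.

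Sema7a, on chromosome 9 from 57940112 to 57962865, read 6.87 and 7.38 CPM in EV, 7.87 in TC and 1.99, 2.68 and 2.00 in TC + ATA. The 3 ATA libraries lay below the other 3, by 3.53-fold against TC (log2 fold change −1.82 ± 0.19, adjusted p = 0.00538, edgeR) and 3.2-fold against EV (log2 fold change −1.68 ± 0.16, adjusted p = 4.52e-05, edgeR). Over 13 alternatives the call against TC held in 12, and it was lost without TC + ATA replicate 3 (adjusted p = 0.0585, edgeR). For this gene ATA gave a level that neither vehicle group had.

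Epha4 rose with ATA, from 2.95 CPM in TC to 5.23, 5.39 and 5.54, a level between TC and EV (log2 fold change 0.87 ± 0.14, adjusted p = 0.0426, edgeR). Of 13 alternatives 7 kept this call, and without any one of the TC + ATA replicates the adjusted p was 0.152 to 0.203 (edgeR). Sema4b, from 44.0 CPM in TC to 31.1 to 31.6 with ATA, had a log2 fold change of −0.49 ± 0.09 that missed the threshold (adjusted p = 0.0595, edgeR). So did Efnb2 (−0.48 ± 0.10, adjusted p = 0.0948, edgeR), from 64.0 CPM to 42.9 to 48.3, and Nrp1 (0.31 ± 0.08, adjusted p = 0.165, edgeR), from 111.6 to 136.6 to 142.3. In Sema4b, Epha4 and Nrp1 the ATA libraries lay between TC and EV or at the EV level, and in Efnb2 they lay further from EV than TC did.

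**Figure D5:**
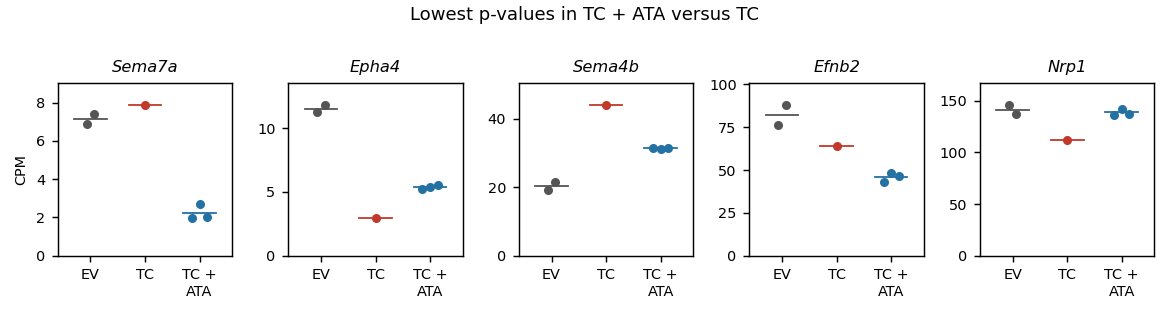
CPM in each library (points, with the group mean as a line) of the 5 guidance genes with the lowest p-values in TC + ATA versus TC, each on its own linear axis from 0. The TC + ATA points of Sema7a (1.99 to 2.68 CPM) lie below EV and TC, those of Epha4 and Sema4b between them, those of Nrp1 at the EV level and those of Efnb2 below both.

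Most genes with a large difference between TC and EV did not pass in TC + ATA versus TC. Epha2 stood at 308.5 to 325.0 CPM with ATA against 374.9 in TC, a log2 fold change of −0.25 ± 0.08 (adjusted p = 0.313, edgeR). Efnb1 (−0.08 ± 0.09), Ntn4 (−0.07 ± 0.12), Sema3c (−0.20 ± 0.17), Slit3 (0.19 ± 0.11) and Plxnb1 (0.11 ± 0.17) also had small log2 fold changes in TC + ATA versus TC that did not pass. With 1 TC library these do not show that ATA left the genes as they were. Of the 51 tested pathway genes 0 were higher and 1 lower with ATA by edgeR, 0% and 1.96% beside 0.426% and 0.156% of all genes. At an unadjusted p under 0.05 by edgeR there were 3 and 8, and by DESeq2 1 and 3. For these the share of all genes was not computed. The 1 called lower by edgeR was Ngef, which encodes the Eph-linked exchange factor ephexin 1 and was picked after its value was seen. It read 19.6 and 20.5 CPM in EV, 32.4 in TC and 20.5, 22.2 and 21.5 in TC + ATA, so that TC alone stood out (log2 fold change −0.60 ± 0.09 with ATA, adjusted p = 0.0274, edgeR). Without any one of the TC + ATA replicates this call was lost (adjusted p = 0.142 to 0.182, edgeR).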

How the data were processed

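Poly(A)-selected RNA was measured in 2 EV libraries, 1 TC library and 3 TC + ATA libraries of NIH3T3 cells. Reads were aligned by the authors to GRCm38.p6 (mm10) with HISAT2 (2.2.1 in the submitters' processing notes) and counted per gene with featureCounts. What was deposited is the raw count of each gene, not normalized. The annotation release and the use of strand are not given in the sources used here, so antisense overlaps matter. Besides Sema4c, Plxnb1, Efna3 and Efna4, the called guidance genes with such overlaps were Plxna1, Ntn3 and Ephb4. For Plxna1 it was 970 of 9054 exon bases (Gm26811), for Ntn3 139 (BC028777) and for Ephb4 33 (Zan). On the same strand Ntn3 shares 89 exon bases with Tbc1d24, and Nrp1 80 with Mir1903.

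From these counts edgeR 4.0.16 in R 4.3.3 was run with TMM, filterByExpr (minimum count 10), glmQLFit and glmQLFTest on all libraries in 1 fit with 3 residual degrees of freedom. Standard errors came from the F statistic. Positions, exon lengths and overlaps came from GENCODE M21 of the same build (55141 of 55401 genes matched), and promoter windows from RefSeq. The fit was run on simulated data for TC + ATA versus EV only, with the outcome not given here. The comparisons with the 1 TC library were not covered by it. Alternatives were DESeq2 1.42.0, other scalings, filters, prior counts and sets of libraries, a replicate block and leaving out each EV and TC + ATA replicate.

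Genes were given with values by a rule: called in TC versus EV with an absolute log2 fold change of at least 1 and a mean of at least 1 CPM, among the 5 lowest p-values in TC + ATA versus TC, or leading their family per length. Other members are given by family, in ranges or where called, and Rgma, Rgmb and Ngef were picked after their values were seen. The members, gene lists and tests were chosen with earlier results of these data known. At this depth 3 counts correspond to 0.0393 to 0.0528 CPM on the TMM-adjusted scale, and such limits cover counting error only. Other experiments of the study were not analysed here.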

Additional observations from a re-analysis of the deposited data

How the results depend on the processing

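In TC versus EV 12 of the 13 higher and 9 of the 17 lower guidance genes were called under all 13 alternatives that tested them, in TC + ATA versus EV 13 of 15 and 12 of 19, and in TC + ATA versus TC 0 of 1 and 0 of 1. The causes of the changes below were not tested, and the smaller fits also hold fewer libraries. Shares of all genes were not computed for the alternatives. Their counts therefore cannot tell whether the listed genes differ from other genes. Lower calls in TC versus EV came to 10 with EV and TC fitted alone. The calls lost there were those of Efna3, Efnb2, Ephb4, Nrp1, Ntn3, Plxna2 and Sema4c. Those by log2 2 or more were 3 higher and 2 lower with scaling by library size, which moved the median log2 fold change of all genes from −0.03 to −0.13, and 0 lower with at least 1 CPM in 2 libraries, a filter that removes Epha7. The pathway genes higher in TC came to 8 with EV and TC alone.

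In TC + ATA versus TC the guidance genes called higher were 3 with DESeq2, 0 with library size scaling, 0 with the 1 CPM filter and 7 with TC and TC + ATA alone, and those lower 3 with DESeq2, 3 without a filter and 6 with TC and TC + ATA alone. The pathway genes higher were 1 with DESeq2, 1 without a filter and 1 with these groups alone, and those lower 3 with DESeq2, 0 with library size scaling, 3 without a filter and 7 with these groups alone.

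Leaving out 1 library gave, in TC versus EV, 13 to 15 higher and 12 to 18 lower guidance genes (3 to 6 and 1 to 2 by log2 2 or more, with 3 without EV replicate 2) and 8 to 14 higher and 10 to 17 lower pathway genes (8 without any one TC + ATA replicate). In TC + ATA versus EV it gave 13 to 17 higher and 13 to 17 lower guidance genes. In TC + ATA versus TC it gave 0 to 7 higher and 0 to 6 lower guidance genes and 0 to 1 higher and 0 to 7 lower pathway genes, with the high counts (6 and 7 higher, 6 and 6 lower guidance genes) without EV replicate 1 or 2.

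EV and TC + ATA share the numbers 1 and 2. Deviations of same-numbered libraries from their group means correlated at −0.029 and −0.0861. With 2 EV libraries the deviations in EV mirror each other, so these values cannot tell whether the numbers pair the samples. With the replicate block the guidance genes in TC versus EV came to 12 higher and 9 lower (3 and 0 by log2 2 or more), those in TC + ATA versus EV to 13 and 13, those in TC + ATA versus TC to 0 and 1, and the pathway genes to 8 higher in TC versus EV and 0 lower in TC + ATA versus TC.

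Some log2 fold changes near 0 that were not called changed sign. Efna1 in TC versus EV was 0.0030 with the replicate block and −0.13 to 0.0186 without 1 library. Ephb3 in TC + ATA versus TC was 0.0067 with the block and −0.0516 to 0.0037 without 1 library, and Nrp1 in TC + ATA versus EV 0.0005 with the 1 CPM filter and −0.0611 to 0.0034 without 1 library. Ntn1 in TC + ATA versus TC was 0.0115 with library size scaling, 0.0031 with the 1 CPM filter, 0.0017 with these groups alone, 0.1454 with the block and −0.1474 to 0.1565 without 1 library. Without 1 library Robo4 in TC versus EV was −0.4664 to 0.1194 and Sema6c in TC + ATA versus EV −0.0092 to 0.1936. The calls of Efna1 and Plxna1 in TC + ATA versus EV and of Epha4 and Ngef in TC + ATA versus TC were lost with library size scaling.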
